A study of Mus musculus with 12 samples.

Results

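Ribosome biogenesis genes and the transcription factor gene Myc were examined by RNA-seq of mouse adipose stromal cells, labelled as stromal vascular fraction, which is what is left of fat tissue once the floating fat cells are taken off and which holds precursors, blood vessel cells and immune cells. The genes were chosen by symbol from a list of 40, made up of Myc and 39 genes for nucleolar proteins that transcribe, modify, cut or assemble ribosomal RNA. Of the 40 symbols, 39 had a row in the count tables of 24422 features, and all 39 passed the filter on low counts that left 16713 genes to test. The symbol without a row was Utp4. RefSeq lists Cirh1a as its older symbol, and Cirh1a has a row, which is reported apart from the 39.

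The 12 libraries form 4 groups of 3. SD mCherry (replicates 1, 2 and 3) and HFD mCherry (replicates 15, 17 and 20) have the genotype p21+/mcherry on a standard diet and on a high-fat diet. HFD Tert (replicates 25, 26 and 27) has the genotype p21+/mcherry-Tert, and HFD TertCi (replicates 30, 31 and 33) has p21+/mcherry-TertCi, both on a high-fat diet. The p21 gene (Cdkn1a) encodes a cell cycle inhibitor induced by p53, and its promoter drives the inserted sequence, so the transgene is expected only where p21 is transcribed. Tert is the reverse transcriptase subunit of telomerase, and TertCi is its catalytically inactive form. All 12 libraries, controls included, come from mice that carry the insertion on 1 p21 allele. The series' design text writes the HFD control genotype as p21+/- without mCherry, and the sample labels were followed. Age, sex, fat depot, batch and whether each library is a separate animal are not given in the labels, so the p-values measure the spread between these libraries, which may be partly technical.

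Ribosome assembly begins in the nucleolus, where RNA polymerase I transcribes a long precursor RNA from the ribosomal DNA. Box C/D particles guided by small nucleolar RNAs methylate the precursor, the small subunit processome folds and cuts the part that becomes the 40S subunit, and a second set of factors builds the 60S subunit. Myc, which binds DNA as a dimer with Max, is known to activate genes at each of these steps, and ribosome production usually follows the growth and division of cells. In adipose tissue such activity would be expected in any cell type that is growing, among them dividing macrophages and fat cell precursors.

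Because Myc with Max is known to bind the E-box CACGTG, that motif was searched for in RefSeq promoters of build GRCm38.p6, each 300 bases long, from 250 before the transcription start to 50 after it. The motif reads the same on both strands, and no other motif was searched for. Of the 33 listed genes with a promoter entry, 8 (24.2%) had the motif, against 2187 of 27025 genes (8.09%). Within the first 50 transcribed bases, 7 of the 33 (21.2%) had it, against 347 of all 27025 (1.28%). The 8 stretches of 30 bases that carry it are shown because they are what the listed genes with a motif share in sequence. They are written 5′ to 3′ on the strand of the gene with the E-box in capitals.
Mybbp1a, chr11:72441347-72441376, plus strand: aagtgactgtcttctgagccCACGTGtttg
Utp4, chr8:106893643-106893672, plus strand: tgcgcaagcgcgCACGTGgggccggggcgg
Utp20, chr10:88826765-88826794, minus strand: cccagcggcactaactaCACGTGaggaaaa
Wdr43, chr17:71616220-71616249, plus strand: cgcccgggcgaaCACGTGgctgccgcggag
Ltv1, chr10:13193092-13193121, minus strand: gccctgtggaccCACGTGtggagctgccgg
Tsr1, chr11:74898092-74898121, plus strand: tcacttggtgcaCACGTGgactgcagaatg
Pes1, chr11:3963965-3963994, plus strand: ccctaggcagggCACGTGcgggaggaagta
Nop2, chr6:125131811-125131840, plus strand: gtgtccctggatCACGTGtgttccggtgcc
In Nop2 the motif begins at position -60 from the start, and in the other 7 its first base lies 3 (Pes1) to 41 (Mybbp1a) bases into the transcript. A list of 75 other ribosome biogenesis genes was also searched, of which the 73 with counts are described below. In that list 13 of 65 genes with a promoter entry (20%) had the motif, and so did 6 of 57 cytosolic ribosomal protein genes (10.5%). A match is a description of these letters and not of binding. Bop1, Fbl, Gnl2, Myc, Npm1, Rrp12 and Rrs1 had no promoter entry.

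Each library held 16430330 to 19486965 counts, and no listed gene had fewer than 88 counts in any library. The added entry mCherry_Tert was at 0 in the 6 mCherry libraries and at 1.93 to 5.54 CPM (counts scaled to a common library total) in the 6 knock-in libraries, as the labels say. The libraries stood apart in the RNA of epithelium markers. The mean level of 5 epithelium markers (Epcam, Krt8, Krt18, Cdh1, Cldn4) lay between 7.62 and 9.58 on the log2 CPM scale in 8 libraries. It lay between 1.86 and 5.34 in the other 4, which were HFD mCherry 17 and 20, HFD Tert 27 and HFD TertCi 31. All 3 SD mCherry libraries were among the 8. Summed over the 5 markers, epithelium ran from 2262 to 4543 CPM in SD mCherry, 83.6 to 2271 in HFD mCherry, 55.8 to 2033 in HFD Tert and 250 to 2209 in HFD TertCi, with no marker at 0. Markers of epididymis and vas deferens, ducts of the male reproductive tract, varied far more. Their 8 genes summed to 8.24 to 57128 CPM in SD mCherry, 8.84 to 16692 in HFD mCherry, 3.88 to 20949 in HFD Tert and 173 to 33468 in HFD TertCi. Of these 8 genes, 1 to 5 were at 0 in 10 of the libraries. Progenitor markers (8 of 8 detected, 2548 to 12207 CPM summed) and macrophage markers (10 of 10, 959 to 6359 CPM) were present in every library. The 5 fat cell markers summed to 26.6 to 130 CPM.

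The listed genes were higher in the 4 libraries with least epithelium. Averaged over the 39 genes, their level in those 4 libraries was 5.43 to 5.74 (log2 CPM), and in the other 8 it was 4.81 to 5.37, without overlap. HFD mCherry 15, the HFD control with high epithelium, was at 4.89, inside the range of the SD mCherry libraries (4.81 to 4.97). In 14 of the 39 genes (35.9%), each of the 4 HFD libraries with least epithelium lay above each of the other 5 HFD libraries, which held for 2144 of all 16713 genes (12.8%). In 34 of the 39 (87.2%) the highest HFD library was 1 of those 4, against 47.6% of all genes. Progenitor markers divided the libraries in the same way, without overlap. Their mean was 8.46 to 9.55 (log2 CPM) in those 4 libraries and 7.33 to 8.38 in the other 8. The levels of epithelium and progenitor markers therefore cannot be told apart here as companions of the level of the listed genes. Endothelial markers were also high in those 4, with a mean of 7.86 to 8.85 (log2 CPM), but overlapped the other 8 libraries (6.50 to 8.16). Bulk RNA cannot tell fewer cells of a type from less RNA per cell, and epithelium is reported for that reason beside the comparisons of 2 groups.

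**Figure D1:**
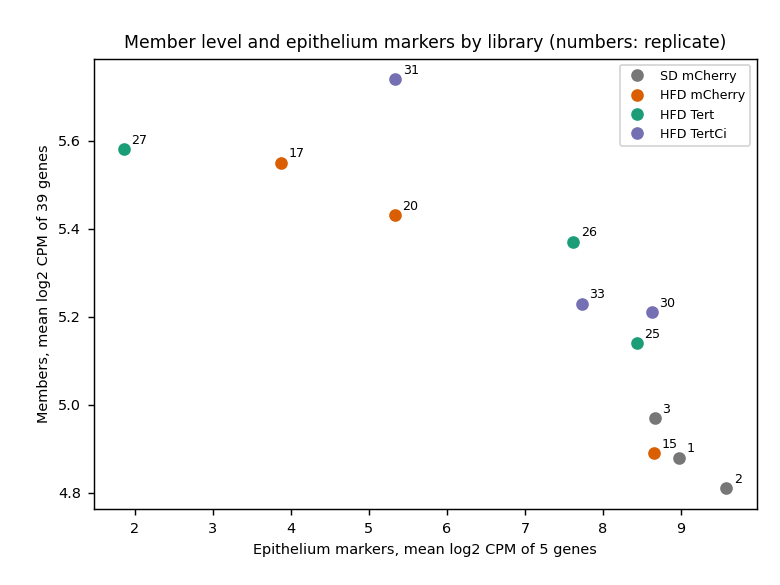
Mean log2 CPM of the 39 listed genes (vertical axis) against mean log2 CPM of 5 epithelium markers (horizontal axis), with 1 point per library, coloured by group and numbered by replicate. The 4 libraries on the left, at 1.86 to 5.34 for epithelium, lie above the 8 on the right, and HFD mCherry 15 lies among the SD mCherry libraries.

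Per kilobase of exon, counting every annotated exonic base of a gene, Myc had the highest median over libraries, 66.1 CPM per kb. Npm1 (38.5), Ncl (36.7) and Rrs1 (27.5 CPM per kb) came next. The exon total can exceed the length of the transcripts present, so this order depends on it and is not a ranking of abundance. Ncl, with 10188 exonic bases against 2717 in Myc, had more CPM than Myc in every library. Wdr12 was the lowest at 0.564 CPM per kb, below Utp20 (1.48) and Polr1a (1.49), with the longest exon total of these 3 at 11955 bases. The range of Npm1 over libraries was the widest, its highest library being 4.58-fold above its lowest, and Bop1 varied least, by 1.45-fold. Nop56 (5), Nop58 (4), Ncl (3), Wdr43 (3), Gnl3 (3) and Tsr1 (2) host 20 small nucleolar RNA genes in their bodies, a feature of 6 of the 40 listed genes (15%) against 2.14% of 21951 protein-coding genes. For 9 genes (Ddx21, Nop56, Fbl, Npm1, Tsr1, Pes1, Wdr12, Ddx18 and Noc2l) a transcript of another gene matched at 95% identity over at least 200 bases. Their counts are uncertain where reads could be split. The search did not leave out genes that overlap at the same place. Tsr1 and Noc2l each had 1 match, not a pseudogene, which may be the overlapping gene named next. Exons of 15 genes share bases with a gene on the other strand, most in Tsr1 with Srr (1240 bases) and Noc2l with Samd11 (598 bases), and use of strand in counting is not given in the sources used here.

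The first comparison, HFD mCherry against SD mCherry, asks what the high-fat diet does in the control genotype. Most of the listed genes had higher estimates on the high-fat diet, led by Heatr1, Rrs1, Ddx21, Gnl3 and Nop2, but none of the 39 was called by edgeR's quasi-likelihood test at an adjusted p under 0.05 (0.0479% of all genes were called). In 32 genes the log2 fold change was above 0 and in 7 below. The median was 0.46, beside -0.08 over all genes tested. At an unadjusted p under 0.05, 11 were higher and 1 lower, against 14.1% and 10% of all genes. The HFD libraries all lay above the SD libraries in 10 genes (Mybbp1a, Ddx21, Utp15, Heatr1, Wdr43, Bop1, Rrs1, Nop2, Gnl3 and Noc2l), against 13.9% of all genes, and in 0 genes did they all lie below, against 11.6%. DESeq2 called 4 genes, all higher (Rrs1, Heatr1, Mybbp1a and Gnl3), where it called 12.7% of all genes, and limma-voom called 0 of the 39 and 0% of all genes.

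**Figure D2:**
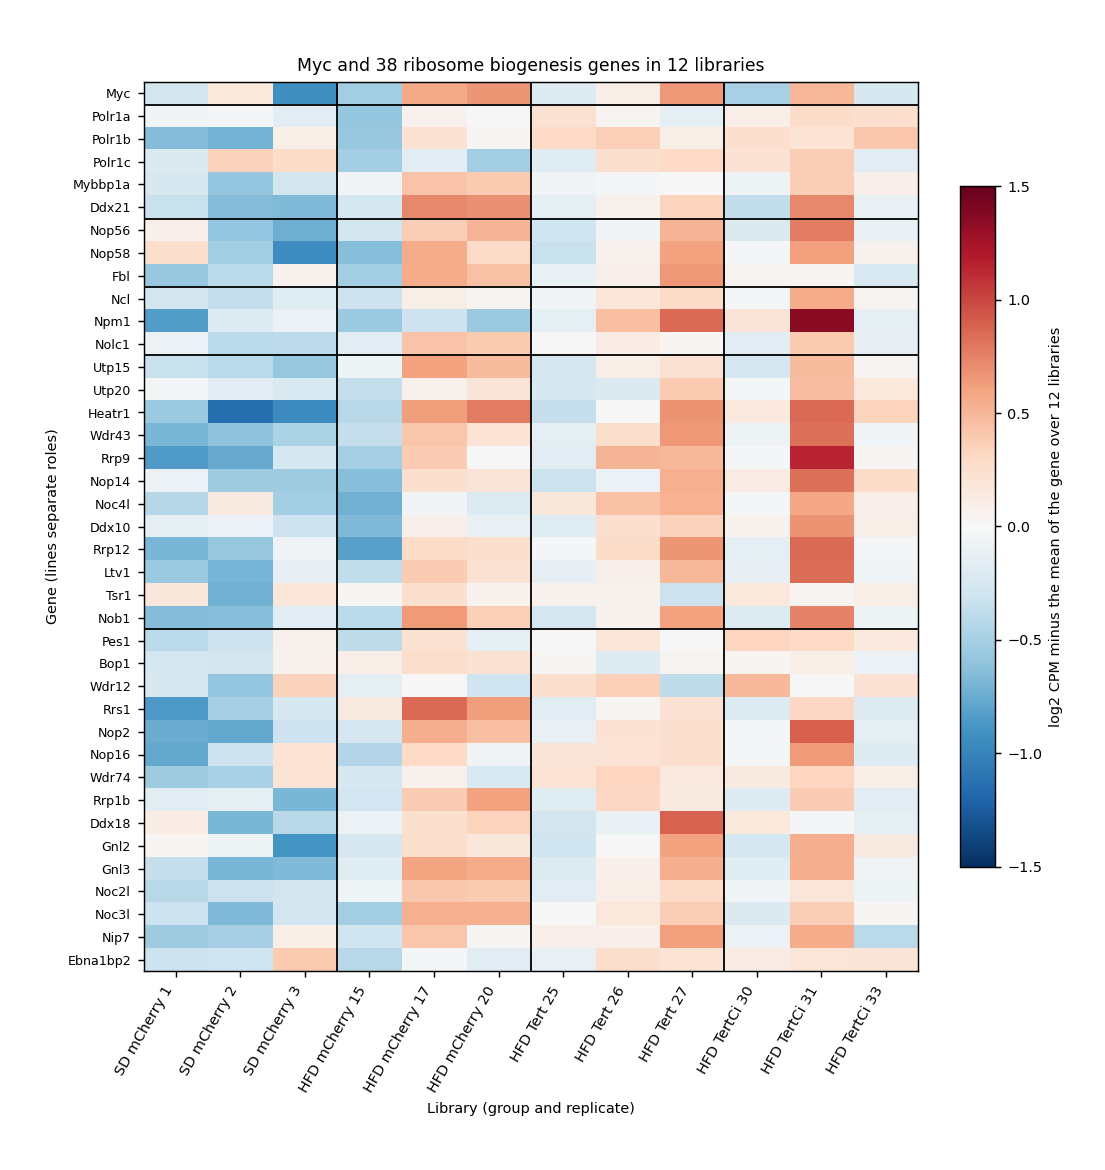
Log2 CPM of each of the 39 genes minus its own mean over the 12 libraries (colour scale), with genes in rows grouped by role and libraries in columns grouped by label. The columns of HFD mCherry 17 and 20, HFD Tert 27 and HFD TertCi 31 are mostly red, and the column of HFD mCherry 15 resembles those of SD mCherry.

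Myc (chr15:61985391-61990374, plus strand, GRCm38) encodes the transcription factor itself. It was at 153, 206 and 97.2 CPM in the SD mCherry libraries and at 128, 274 and 292 CPM in HFD mCherry 15, 17 and 20. The HFD library with high epithelium lay inside the SD range and the other two above it, so the groups overlapped. The log2 fold change was 0.61 ± 0.402 (SE, edgeR adjusted p = 0.363, n = 3 and 3).

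Of the 5 genes for RNA polymerase I and ribosomal DNA transcription, Ddx21 and Mybbp1a were higher in every HFD control library and Polr1c had the lowest fold change of the 39 genes. Ddx21, an RNA helicase of the nucleolus, was at 104, 83.5 and 82.7 CPM in SD mCherry and at 109, 215 and 210 CPM in HFD mCherry 15, 17 and 20. The groups did not overlap, and the lowest HFD library was close to the highest SD library. Its log2 fold change was 0.99 ± 0.328 (SE, edgeR adjusted p = 0.123). Mybbp1a, a nucleolar Myb-binding protein, was at 83.9, 66 and 81.7 CPM against 95.9, 133 and 130 CPM (0.63 ± 0.190, edgeR adjusted p = 0.101). Polr1c, a subunit shared by RNA polymerases I and III, went the other way, at 42.3, 62.4 and 59.8 CPM in SD mCherry and 34.6, 44.1 and 34.2 CPM in HFD mCherry. Only SD mCherry 1 lay among the HFD values, and the log2 fold change was -0.54 ± 0.225 (SE, edgeR adjusted p = 0.183). The largest subunit Polr1a averaged 16.6 ± 0.824 CPM (SD, n = 3) on the standard and 15.8 ± 3.55 CPM on the high-fat diet, and the second largest, Polr1b, 15.7 ± 5.16 and 19.4 ± 5.07 CPM, differences within the spread of the libraries.

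The 3 box C/D proteins, which hold and carry out ribose methylation, had fold changes close to each other and no call. Nop56 averaged 52.9 ± 16.7 CPM on the standard and 80.7 ± 21.5 CPM on the high-fat diet (SD, n = 3 each). Nop58 averaged 50.9 ± 22.0 and 70.0 ± 26.8 CPM. The methyltransferase Fbl averaged 7.44 ± 1.72 and 10.6 ± 3.78 CPM. Their log2 fold changes were 0.61, 0.46 and 0.51, and the groups overlapped in all 3. Among the nucleolar scaffolds and chaperones, Nolc1 and Ncl had log2 fold changes of 0.53 and 0.22, and Npm1, which chaperones ribosomal and histone proteins, had -0.13.

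In the set for the small subunit processome and 40S maturation, 10 of 12 genes had a fold change above 0, with a median of 0.48. Heatr1 (chr13:12395027-12440289, plus strand), the mouse form of the yeast processome protein Utp10, had the highest fold change of the 39 genes. It was at 12.7, 8.58 and 9.67 CPM in SD mCherry and at 14.1, 28.9 and 31.9 CPM in HFD mCherry 15, 17 and 20, without overlap. Its log2 fold change was 1.27 ± 0.371 (SE, edgeR adjusted p = 0.0947). Utp15 (0.79), Nob1 (0.73) and Wdr43 (0.71) followed, and Noc4l (-0.05) and Ddx10 (-0.03) were lowest. Cirh1a, the older symbol of Utp4, was at 21.4, 17.1 and 15.5 CPM against 18, 33.5 and 32.7 CPM, with a log2 fold change of 0.64 ± 0.274 (SE, edgeR adjusted p = 0.19).

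In the 60S assembly set, 13 of 15 genes had a fold change above 0, with a median of 0.36. Rrs1 (chr1:9545408-9547455, plus strand), which helps to bring the 5S RNA particle into the early 60S subunit, had the smallest adjusted p of the 39 genes. It was at 32.6, 41.8 and 49.9 CPM in SD mCherry and at 65.1, 106 and 91.4 CPM in HFD mCherry 15, 17 and 20. Every HFD control library lay above every SD library, HFD mCherry 15 included. The log2 fold change was 1.08 ± 0.247 (SE, edgeR adjusted p = 0.0708), and DESeq2 gave 1.05 ± 0.287 with an adjusted p of 0.00612. Gnl3, the nucleolar GTPase nucleostemin, was at 65.1, 51.4 and 52.2 CPM against 73, 124 and 121 CPM (0.91 ± 0.285, edgeR adjusted p = 0.109). None of the PeBoW complex, which processes the 5.8S and 28S RNAs, was called. Pes1 averaged 36.1 ± 6.53 CPM on the standard and 39.4 ± 8.49 CPM on the high-fat diet, Bop1 36.6 ± 4.9 and 46.6 ± 2.66 CPM, and Wdr12 6.26 ± 2.09 and 6.14 ± 0.65 CPM. Of these 3, the groups separated only in Bop1. Ebna1bp2, another 60S factor, was at 31.9, 32.5 and 52.5 CPM against 30, 39.1 and 35.5 CPM (-0.16 ± 0.221, edgeR adjusted p = 0.664).

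The diet comparison leaned on which HFD controls were in it. Without HFD mCherry 15, edgeR called 9 of the 39 genes, all higher (Mybbp1a, Ddx21, Utp15, Heatr1, Rrs1, Nop2, Gnl3, Noc2l and Noc3l), where 8.76% of all genes were called higher, and the median was 0.68. With a score of epididymal and epithelial markers as a covariate Rrs1 alone was called (0.94, edgeR adjusted p = 0.021), where 7.68% of all genes were called. With the mean of the 5 epithelium markers as covariate, chosen after seeing the data, the median was 0.08. In the 8 libraries with most epithelium, where HFD mCherry 15 is the only HFD control and is assumed to vary like the other groups, it was -0.02. Macrophage markers were higher on the high-fat diet in 10 of 10 genes (median log2 fold change 2.26, summed 1135 to 1313 CPM in SD and 2546 to 6359 CPM in HFD mCherry), and progenitor markers in 7 of 8 (median 0.97). Endothelial markers were higher in 6 of 7 genes (median 1.03, summed 764 to 1108 against 1531 to 2812 CPM), mast cell markers in 5 of 5 (median 2.20, 24.6 to 80.9 against 74.6 to 261 CPM) and neutrophil markers in 4 of 4 (median 1.92). Mesothelial markers were lower in 5 of 6 genes (median -0.85). All 5 epithelium markers were lower on the high-fat diet (median -1.91). Among the HFD controls only HFD mCherry 15 was high in epithelium, as all SD libraries were, so fits that use it cannot part it from diet. The part of any of these cell types, epithelium included, in the result was not tested.

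**Figure D3:**
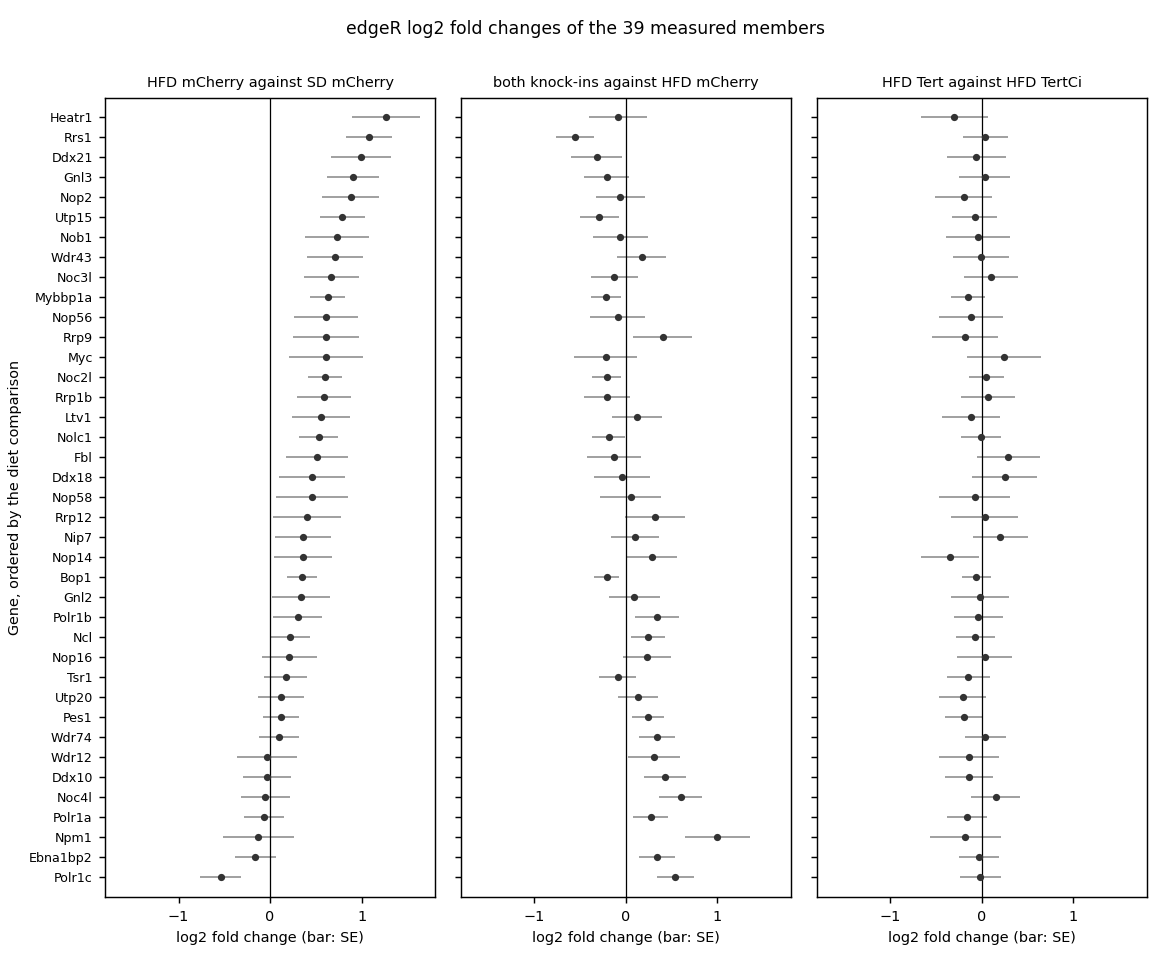
EdgeR log2 fold change (point) and standard error (bar) of each of the 39 genes in 3 comparisons, with genes ordered by the diet comparison. In the diet panel most points lie right of 0, from -0.54 (Polr1c) to 1.27 (Heatr1), in the knock-in panel they lie on both sides, and between the knock-ins they stay within -0.35 and 0.29.

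The next comparisons ask what Tert or its inactive form does on the high-fat diet. Across the 39 genes the estimates lay on both sides of 0, with Npm1, Noc4l and Polr1c at the upper end and Rrs1 at the lower end in both genotypes. EdgeR called 0 of the 39 in HFD Tert against HFD mCherry, where 0% of all genes were called, and 0 in HFD TertCi against HFD mCherry, where 0.0120% were called. The median log2 fold change was 0.06 with Tert and 0.09 with TertCi, beside -0.05 and -0.04 over all genes. Both comparisons use the same HFD mCherry libraries, so their values are not independent of each other.

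With Tert, 3 genes were higher (Npm1, Noc4l and Polr1c) and 0 lower at an unadjusted p under 0.05, against 6.62% and 9.75% of all genes. All Tert libraries lay above all HFD mCherry libraries in 3 genes (Npm1, Noc4l and Wdr74) and below in 1 (Bop1), against 9.99% and 11.1% of all genes. With TertCi, 2 were higher (Npm1 and Polr1c) and 1 lower (Rrs1) at an unadjusted p under 0.05, against 5.76% and 8.92%. All TertCi libraries lay above in 6 genes (Polr1a, Polr1c, Npm1, Noc4l, Wdr74 and Ebna1bp2) and below in 1 (Bop1), against 9.45% and 12%. DESeq2 called 0 of the 39 genes in either comparison, where it called 4.68% and 3.71% of all genes, and limma-voom called 0 as well, where it called 0% and 0.0120%.

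Npm1 (chr11:33152287-33163206, minus strand) had the highest fold change in both knock-ins. It was at 76.8, 90.8 and 76.7 CPM in HFD mCherry 15, 17 and 20, at 102, 154 and 204 CPM in HFD Tert 25, 26 and 27, and at 129, 289 and 103 CPM in HFD TertCi 30, 31 and 33. All 6 knock-in libraries lay above all 3 controls, and HFD TertCi 31 was the highest of the 12 libraries. The log2 fold change was 0.91 ± 0.390 with Tert and 1.09 ± 0.392 with TertCi (SE, edgeR adjusted p = 0.284 and 0.257). The SD mCherry libraries, at 63.1, 98.5 and 106 CPM, overlapped both the HFD controls and the knock-ins. Npm1 has 4 near-identical pseudogene copies.

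Noc4l (chr5:110648418-110653417, minus strand), which pairs with Nop14 in 40S maturation, was at 14, 22.4 and 19.9 CPM in HFD mCherry, at 25.9, 31.3 and 33 CPM with Tert and at 22.7, 34.3 and 24.3 CPM with TertCi. No knock-in library lay among the HFD controls. The SD mCherry libraries, at 17.1, 25.2 and 16.2 CPM, overlapped the TertCi libraries and lay below those with Tert. The log2 fold changes were 0.68 ± 0.264 and 0.53 ± 0.264 (SE, edgeR adjusted p = 0.256 and 0.388). Polr1c (chr17:46243920-46248054, minus strand) was at 43.6, 58.2 and 60.8 CPM with Tert and 57.5, 63.5 and 44.2 CPM with TertCi, against 34.6, 44.1 and 34.2 CPM in the HFD controls. HFD Tert 25 overlapped the highest control and the TertCi libraries did not. The log2 fold changes were 0.53 ± 0.225 and 0.55 ± 0.225 (SE, edgeR adjusted p = 0.285 and 0.299).

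Rrs1 had the lowest fold change in both. It was at 52.5, 60.1 and 68.8 CPM with Tert and at 51.4, 73.1 and 51.5 CPM with TertCi, against 65.1, 106 and 91.4 CPM in HFD mCherry. The highest knock-in library of each genotype lay above HFD mCherry 15, and the rest lay below all controls. The log2 fold changes were -0.53 ± 0.244 and -0.58 ± 0.244 (SE, edgeR adjusted p = 0.31 in both). Ddx21 was at 118, 137 and 164 CPM with Tert and 101, 215 and 121 CPM with TertCi, with log2 fold changes of -0.35 ± 0.325 and -0.29 ± 0.325, and overlapped the HFD controls.

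Myc did not separate the knock-ins from the HFD controls. It was at 161, 198 and 290 CPM with Tert and 132, 260 and 156 CPM with TertCi, all within the 128 to 292 CPM of HFD mCherry. The log2 fold changes were -0.10 ± 0.401 and -0.34 ± 0.401 (SE, edgeR adjusted p = 0.928 and 0.72). For the 6 knock-in against the 3 HFD mCherry libraries, the difference in mean log2(CPM + 0.1) was -0.18, with a 2-sided exact permutation p of 0.667 over 84 splits, the smallest possible being 0.0119. Without HFD mCherry 20 the difference was 0.03.

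**Figure D4:**
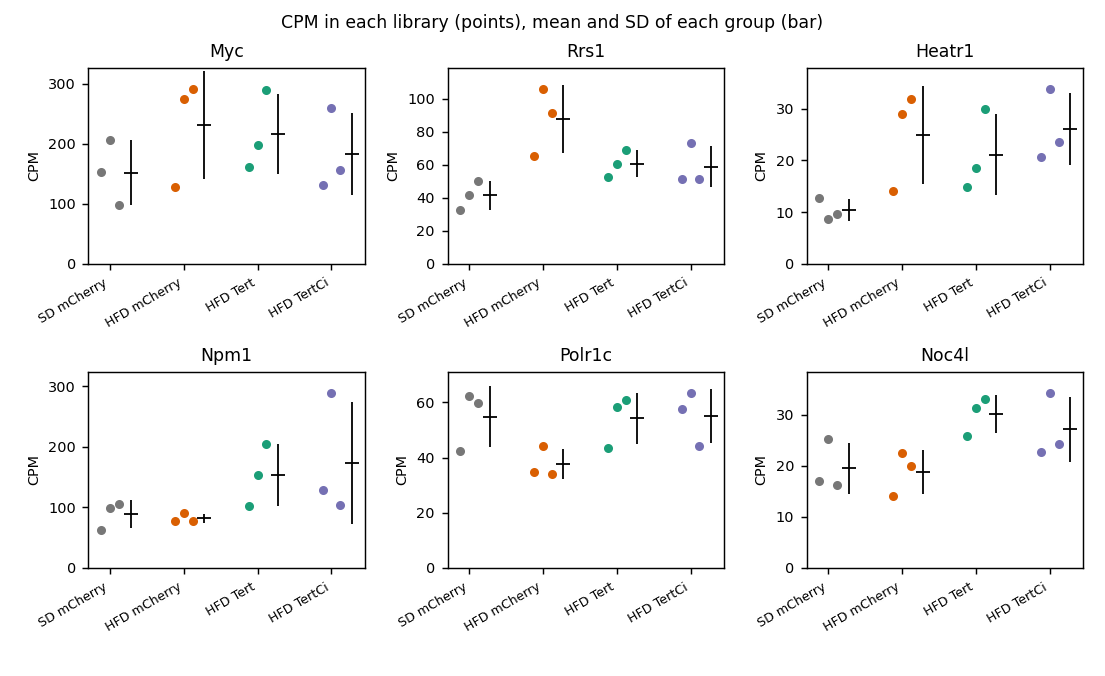
CPM of Myc, Rrs1, Heatr1, Npm1, Polr1c and Noc4l in each library (points, 3 per group), with the mean and standard deviation of the group beside them. Rrs1 and Heatr1 separate SD from HFD mCherry, Npm1 and Noc4l are higher in all 6 knock-in libraries than in the HFD controls, and Myc overlaps in every group.

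With both knock-ins combined against HFD mCherry, edgeR called 0 of the 39 genes, where 0.168% of all genes were called. The median was 0.09, with 21 above and 18 below 0. At an unadjusted p under 0.05, 3 were higher (Npm1, Noc4l and Polr1c) and 1 lower (Rrs1), against 7.56% and 13.4% of all genes. The groups did not overlap in 3 higher genes (Npm1, Noc4l and Wdr74), against 6.01%, and in 1 lower gene, Bop1, against 7.03%. DESeq2 called 0 where it called 8.52% of all genes, and limma-voom 0 where it called 0.0718%. Npm1 averaged 164 ± 72.3 CPM (SD, n = 6) in the knock-ins and 81.4 ± 8.1 CPM (n = 3) in the controls, a log2 fold change of 1.00 ± 0.351 (SE, edgeR adjusted p = 0.153). Noc4l averaged 28.6 ± 4.9 and 18.8 ± 4.31 CPM (0.60 ± 0.234, edgeR adjusted p = 0.183). With the score of epididymal and epithelial markers as a covariate Noc4l was called (0.66, edgeR adjusted p = 0.0379), where 7.90% of all genes were called. Wdr74, a 60S factor, averaged 30.6 ± 1.97 CPM with Tert and 29.7 ± 2.55 CPM with TertCi, against 23.8 ± 2.88 CPM. In SD mCherry Wdr74 was at 18, 18.7 and 30.1 CPM, which overlapped both knock-ins.

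The median over the 39 genes changed sign with the HFD controls used. Without HFD mCherry 15 it was -0.07, and in the 8 libraries with most epithelium it was 0.36, HFD mCherry 15 then being the only control. Macrophage markers were lower in both knock-ins in 10 of 10 genes (median log2 fold change -1.83 with Tert and -1.92 with TertCi), with summed levels of 959 to 2572 and 1210 to 1843 CPM against 2546 to 6359 CPM. Progenitor markers were lower in 7 of 8 genes in each (medians -0.67 and -0.81), and Pdgfra, a receptor that marks fat cell precursors, fell with TertCi (-1.84 ± 0.220, edgeR adjusted p = 0.0426). Fat cell markers were higher in 4 of 5 genes (medians 1.40 and 0.94). Epithelium markers were higher in 4 of 5 genes with Tert (median 0.46) and in 5 of 5 with TertCi (median 0.58), with overlapping groups. Mast cell markers were lower in 5 of 5 genes in both knock-ins (medians -2.05 and -2.07). Mesothelial markers were higher in 5 of 6 (medians 2.25 and 1.47), and their summed level was 651 to 1625 CPM with Tert and 634 to 877 CPM with TertCi against 281 to 323 CPM. Endothelial markers were higher in 7 of 7 (medians 0.34 and 0.35). The part of any of these cell types, epithelium included, in the values of the listed genes was not tested.

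HFD Tert against HFD TertCi asks whether the catalytic activity of Tert matters. EdgeR and limma-voom called 0 of the 39 genes, where each called 0% of all genes, and DESeq2 called 0 where it called 0.0487%. None had an unadjusted p under 0.05, against 1.36% of all genes, and in none did the groups separate, against 5.13%. Epithelium markers were higher with Tert in 1 of 5 genes (median -0.12). The log2 fold changes ran from -0.35 to 0.29, with 13 above and 26 below 0 and a median of -0.04. Fbl was at 8.4, 9.56 and 14.2 CPM with Tert and 9.33, 9.27 and 7.72 CPM with TertCi (0.29 ± 0.341). The helicase Ddx18 was at 6.19, 6.99 and 13.9 CPM against 8.42, 7.4 and 6.87 CPM (0.25 ± 0.357). Both upper values rested on HFD Tert 27. Nop14 was at 24.7, 29.2 and 44.9 CPM against 33.8, 55 and 37.4 CPM (-0.35 ± 0.314), and Heatr1 at 14.8, 18.6 and 30 CPM against 20.7, 33.9 and 23.6 CPM (-0.30 ± 0.365). Standard errors of this size leave room for differences of the order of the estimates, so the libraries do not show that the genotypes act alike.

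Over all 4 groups at once, the edgeR F-test called 0 of the 39 genes, where 0.0120% of all genes were called. At an unadjusted p under 0.05 it found 5 of the 39, against 20.2% of all genes. Rrs1 had an adjusted p of 0.144, and DESeq2's likelihood ratio test called Rrs1 alone (adjusted p = 0.0359), where it called 12.5% of all genes.

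Myc itself divided the libraries as the epithelium markers did, at 260 to 292 CPM in the 4 libraries with least epithelium and 97.2 to 206 CPM in the other 8. Correlations of the listed genes with Myc were therefore computed within the 8, the only cluster with at least 6 libraries. This setting was chosen after the data were seen, and the planned correlations over all 12 libraries are given further below. Of 38 genes 22 had a positive Pearson r there, with a median of 0.108, and 0 passed an adjusted permutation p of 0.05 (Benjamini-Hochberg over 38). The highest r were those of Rrp1b (0.851), Gnl2 (0.778) and Noc4l (0.749), and the lowest those of Bop1 (-0.756) and Tsr1 (-0.597). Even Rrp1b had an adjusted permutation p of 0.29, so 0 calls in 8 libraries says little about weaker correlations. No value over all genes is given beside these counts. These 8 libraries share a range of epithelium and differ in group, so r describes them and no more.

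The rest of the pathway was described from a list of 73 other ribosome biogenesis genes. In the diet comparison 48 were above and 25 below 0, with a median of 0.18, and edgeR called 0. At an unadjusted p under 0.05, 10 were higher and 2 lower, where 14.1% and 10% of all genes were. Rcl1, a small subunit factor, was highest (0.97 ± 0.351, edgeR adjusted p = 0.143), and Nop10, of the box H/ACA particle that also belongs to telomerase, was lowest (-0.88 ± 0.445, adjusted p = 0.244). Against HFD mCherry the medians were 0.08 with Tert and 0.15 with TertCi, again with 0 called. Bysl, which acts in 40S maturation, was highest in both. It was at 52.9, 64.6 and 47.4 CPM in HFD mCherry, at 105, 116 and 100 CPM with Tert and at 109, 112 and 82.1 CPM with TertCi, without overlap. For both knock-ins together its log2 fold change was 0.92 ± 0.223 (SE, edgeR adjusted p = 0.0795). In SD mCherry Bysl was at 55.4, 88.9 and 108 CPM.

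Cytosolic ribosomal proteins, the products that the assembly factors handle, had a different pattern from the listed assembly factors, though that difference was not tested. In the diet comparison 28 of 78 were above 0, with a median of -0.13. In the knock-ins 70 (Tert) and 71 (TertCi) of 78 were above 0, with medians of 0.46 and 0.39, and 28 and 25 were higher at an unadjusted p under 0.05, where 6.62% and 5.76% of all genes were. EdgeR called 0 of the 78 in either. DESeq2 called 7 and 9, all higher, where it called 1.70% and 1.13% of all genes higher. Rplp1, a protein of the stalk of the 60S subunit, was highest in both, at 261, 275 and 214 CPM in HFD mCherry, 417, 671 and 788 CPM with Tert and 638, 934 and 394 CPM with TertCi. The groups did not overlap, and the log2 fold change for both knock-ins together was 1.36 ± 0.350 (SE, edgeR adjusted p = 0.0876). Rps2 was lowest in that comparison (-0.34 ± 0.175, edgeR adjusted p = 0.295). Without HFD mCherry 15 the medians were 0.48 and 0.41. Ribosomal protein genes have many processed pseudogenes, so their counts are uncertain where reads could be split.

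**Figure D5:**
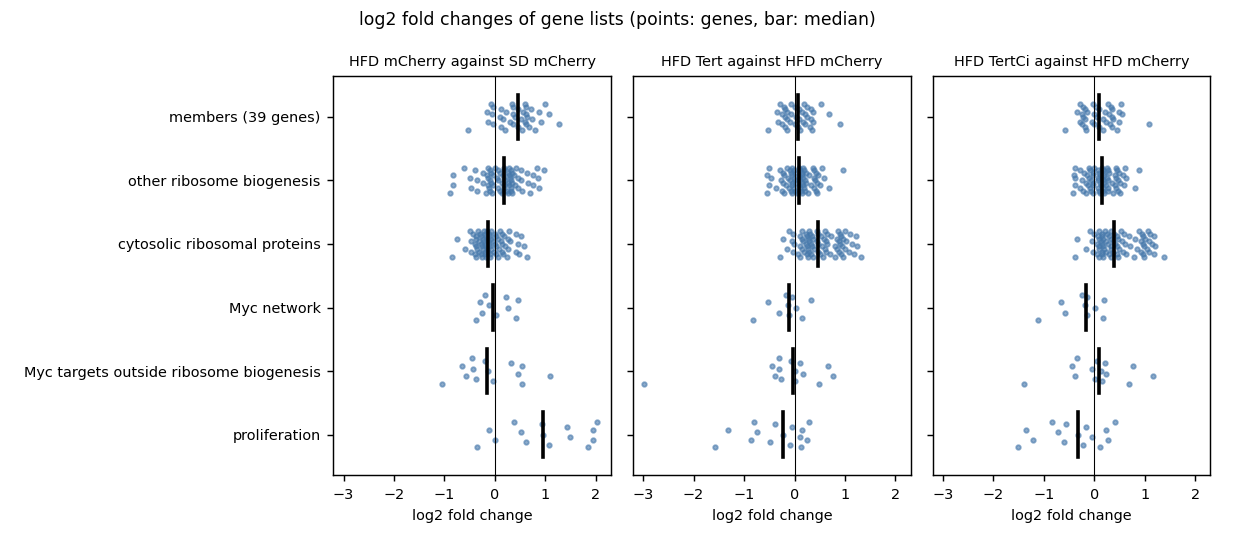
EdgeR log2 fold changes of the genes of 6 lists (points) with the median of each list (bar), in the diet comparison and in each knock-in against HFD mCherry. The 39 listed genes have a median of 0.46 in the diet panel and 0.06 and 0.09 in the knock-in panels, and the cytosolic ribosomal proteins -0.13, 0.46 and 0.39.

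Among the partners and rivals of Myc edgeR called 0 genes. Of 10 genes of the Myc network (Max, the Mxd family and relatives), 5 were above and 5 below 0 on the high-fat diet (median -0.05), from Mlx (-0.38) to Mxd1 (0.45). In the knock-ins 7 of 10 were below 0, with Mxd4, a repressor that competes for Max, lowest with Tert (-0.83 ± 0.275, edgeR adjusted p = 0.224) and Mycl lowest with TertCi (-1.11 ± 0.653, edgeR adjusted p = 0.449). All TertCi libraries lay below all HFD mCherry libraries in 4 of the 10, where 12% of all genes did, and all Tert libraries in 2, where 11.1% did. Of 14 Myc targets outside ribosome biogenesis, 5 were above and 9 below 0 on the high-fat diet (median -0.16). Odc1, the first enzyme of polyamine synthesis, was highest (1.09 ± 0.415, edgeR adjusted p = 0.16) and Shmt2 lowest (-1.04 ± 0.592, edgeR adjusted p = 0.294). With Tert 7 of these 14 targets were above 0 (median -0.03, from -2.98 to 0.76). With TertCi 9 were above 0 (median 0.09, from -1.39 to 1.17). Proliferation genes were above 0 in 13 of 15 on the high-fat diet (median 0.96), with Mki67 highest (2.02 ± 0.538, edgeR adjusted p = 0.0822). In the knock-ins 5 (Tert) and 4 (TertCi) of 15 were above 0. The immediate early genes, which tissue dissociation induces, were below 0 in 15 of 16 on the high-fat diet (median -0.65), with Atf3 lowest (-1.18 ± 0.393, adjusted p = 0.123), and split evenly in the knock-ins. EdgeR called 0 genes of these 4 lists in each of the 3 comparisons, although on the high-fat diet 7 of 15 proliferation genes were higher, and 1 immediate early gene higher and 4 lower, at an unadjusted p under 0.05, where 14.1% of all genes were higher and 10% lower.

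Rn45s, the entry for the ribosomal RNA precursor, was singled out after its values were seen, since the listed proteins act on that RNA. It was at 986, 1106 and 2677 CPM in SD mCherry and 2334, 1205 and 1153 CPM in HFD mCherry, a log2 fold change of -0.02 ± 0.458. It was at 3443, 1565 and 1948 CPM with Tert and 1709, 1884 and 1461 CPM with TertCi, and the groups overlapped. The libraries were selected for poly-A RNA, so this entry is what remained of an RNA without a poly-A tail.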

How the data were processed

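RNA from the stromal vascular fraction of adipose tissue was selected with poly-T and primed with random hexamers, per the labels' protocols, and 12 libraries in 4 groups of 3 were sequenced. The deposited tables hold raw read counts per gene, which the authors made with featureCounts 1.6.4 from Subread on mm10, per the submitters' processing notes. Which annotation was counted, and whether by strand, is not given in the sources used here. Samples were grouped by genotype and diet labels, and no 2 libraries held the same values.

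All 12 libraries entered 1 edgeR 4.0.16 quasi-likelihood fit (R 4.3.3) with TMM scaling, the filterByExpr low-count filter and robust dispersion. P-values were 2-sided and Benjamini-Hochberg adjusted over 16713 genes, with a call at 0.05. The SE was the log2 fold change divided by the square root of F. CPM used TMM-scaled totals. The members and lists were chosen with earlier results of these data known. Named with values in every library were Myc, genes called in any comparison, and the 2 highest and 2 lowest fold changes per comparison. Members of the PeBoW, box C/D and RNA polymerase I complexes were given as group means, and other lists by their extremes. Alternatives were DESeq2 1.42.0, limma-voom (limma 3.58.1), other scaling, no low-count filter, only the groups compared, marker covariates and leaving out each library. Gene positions and copies came from GENCODE M21 on GRCm38 and BLAST 2.17.0, and promoters from RefSeq. The edgeR scripts were tested on simulated data.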

Additional observations from a re-analysis of the deposited data

How the results depend on the processing

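No paired analysis was possible because no replicate number occurs in more than 1 group. Of the 39 genes, those called for the diet numbered 4 with DESeq2 and 1 with the epithelial score covariate. With single libraries left out they numbered 0 to 9. The 9 came without HFD mCherry 15. The 1 without HFD Tert 27 was Rrs1 (edgeR adjusted p = 0.046), given here without the share of all genes. The score also gave 1 call for both knock-ins. DESeq2 gave 1 call over the 4 groups. The diet median was 0.18 with library size alone, where all genes shifted to -0.27. It was 0.32 to 0.68 with single libraries left out. With 2 settings chosen after seeing the data it was 0.08 (epithelium covariate) and -0.02 (8 libraries with most epithelium). In those 8 libraries the median was 0.40 for Tert and 0.36 for both knock-ins. With single libraries left out the medians ran from -0.19 to 0.20 (Tert), -0.15 to 0.21 (TertCi), -0.16 to 0.20 (Tert against TertCi) and -0.07 to 0.19 (both knock-ins), and 0 genes were called in these 4 comparisons and the F-test.

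The Myc log2 fold change reversed in the 8 libraries for diet (-0.26), Tert (0.49), TertCi (0.17) and both knock-ins (0.33), and for Tert with library size alone (0.02). With single libraries left out it ran from 0.37 to 0.90 (diet), -0.39 to 0.11 (Tert, with 0.04 without HFD mCherry 17, 0.11 without HFD mCherry 20 and 0.08 without HFD Tert 25), -0.68 to -0.14 (TertCi), -0.02 without HFD Tert 27 to 0.58 (Tert against TertCi) and -0.51 to -0.02 (both knock-ins). The permuted difference ran from -0.56 to 0.03, without HFD mCherry 20. Over all 12 libraries, which fall into 2 separate clusters, 14 of 38 genes passed the Pearson test with Myc. Their r was over 0.5 in 71.1% of the 38, against 27% of all genes. The Pearson test passed 20 on deviations from group means, 14 with RLE factors and 8 with library size alone. The Spearman rank test passed 17 over the 12 libraries, and 15, 1 and 11 in those settings. Both tests passed 0 without the 2 libraries farthest from the median and 0 in the 8 libraries. The cause of these changes was not tested. With 3 libraries a group and a common biological coefficient of variation of 0.536, differences near the standard errors given were not detectable.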

Other observations

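Cdkn1a, the gene whose promoter drives the knock-in, was chosen after its values were seen. It was at 213, 261 and 150 CPM in SD mCherry, at 226, 425 and 367 CPM in HFD mCherry 15, 17 and 20, at 237, 267 and 433 CPM in HFD Tert 25, 26 and 27, and at 222, 478 and 265 CPM in HFD TertCi 30, 31 and 33. The 4 libraries with least epithelium were the 4 highest, as they were for Myc. Tert was at 0.463 to 3.97 CPM in the mCherry libraries and at 6.99 to 16.6 CPM in the knock-in libraries.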
